A study of Mus musculus with 2 samples.

Results

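Cyclin-dependent kinase inhibitors are small proteins that bind cyclin–kinase complexes and hold cells out of the division cycle. The 7 genes examined were chosen by name, as the complete Cip/Kip family (Cdkn1a, Cdkn1b and Cdkn1c, encoding p21, p27 and p57) and the complete INK4 family (Cdkn2a, Cdkn2b, Cdkn2c and Cdkn2d, encoding p16, p15, p18 and p19), among 21951 genes and transgene sequences in the matrix. Cip/Kip proteins bind a broad range of cyclin–kinase complexes, whereas INK4 proteins bind the D-cyclin partners Cdk4 and Cdk6. Cdkn1a is a classical transcriptional target of p53 and is widely read as a marker of DNA damage, toxicity and senescence. Cdkn1c is imprinted and expressed from the maternal copy, and is known to restrain growth of the embryo. In endothelial cells (ECs), Cip/Kip inhibitors are known to take part in the arrest that accompanies vessel maturation.

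The study developed iSuRe-HadCre, an allele that couples a membrane Tomato reporter to transient Cre expression, and compared it with the first-generation iSuRe-Cre allele, in which Cre expression is permanent. Heart and liver cells of C57BL/6 pups were hashtagged, pooled and run as 1 10x Genomics library, which gave 6 groups, namely control, iSuRe-Cre and iSuRe-HadCre in each organ. The iSuRe groups carried Cdh5-CreERT2, an inducible Cre driven in ECs, together with the respective iSuRe allele, and a figure of the study shows Notch1 floxed alleles in them, which the labels do not mention. The genotype of the control and the number of pups in each group were not found in the sources used here. A single dose of 40 mg/kg 4-hydroxytamoxifen was given at postnatal day 3, tissue was taken 3 days later (age given as 6 to 7 days), and cells were sorted for CD31 and membrane Tomato, although the design text also names sorting by absence of Tomato.

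ECs were barcodes with 2000 to 75000 UMIs (unique molecular identifiers, each 1 captured transcript), over 500 genes, mitochondrial and haemoglobin shares under 5%, Cdh5 above 0.9 on the log-normalized scale and 1 hashtag. Control heart held 254 such cells with 3030031 UMIs in all, iSuRe-Cre heart 435 with 8303637 and iSuRe-HadCre heart 311 with 3102952. Control liver held 54 cells with 624048 UMIs, iSuRe-Cre liver 858 with 9341120 and iSuRe-HadCre liver 76 with 682984. The control and iSuRe-HadCre liver values thus rested on far fewer cells than the others. Median UMIs per cell were 9100, 16379 and 7322 for control, iSuRe-Cre and iSuRe-HadCre heart, and 7980, 8765 and 7383.5 in liver in the same order. With 1 hashtagged sample in each group no test between groups was possible. Levels are UMIs of a gene per 1000000 gene UMIs of the group (CPM), and intervals are exact 95% intervals that cover counting error only, without the spread between animals.

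Several markers bear on how the group names can be read. Pecam1, the CD31 gene, had a UMI in 88.8% to 99.8% of the cells of the 6 groups. Notch1 was at 138 CPM for control heart, 12.6 for iSuRe-Cre heart and 23.2 for iSuRe-HadCre heart, and at 160.2, 21.4 and 30.7 CPM in liver in the same order, so both iSuRe groups were low in each organ. WPRE, a transcript element of the transgenes, was at 1055 CPM for iSuRe-HadCre heart and 1070.3 for iSuRe-HadCre liver. In the cells labelled control it was at 562 CPM in heart and 396 in liver, above the 63.5 and 105 CPM of iSuRe-Cre heart and liver. The cells labelled control thus held more of this sequence than those labelled iSuRe-Cre. The study kept only cells with log-normalized WPRE above 0.5, as Tomato-positive ECs, and that limit was not applied to the groups here. At or below it were 66.7% of iSuRe-Cre, 6.11% of iSuRe-HadCre and 10.2% of control heart cells. In liver the shares were 55.8%, 13.2% and 25.9% in the same order. The iSuRe-Cre groups are therefore not limited to reporter-positive cells. Cre itself was at 29.0, 30.7 and 36.7 CPM for control, iSuRe-Cre and iSuRe-HadCre heart, with overlapping intervals. In liver it was at 9.61, 26.7 and 26.4 CPM in the same order. The liver groups also differed in Stab2, a receptor of sinusoidal ECs, which was at 30.4 CPM for control, 1446 for iSuRe-Cre and 387 for iSuRe-HadCre liver. S100a8, a neutrophil gene, was at 261 CPM for control, 1439 for iSuRe-Cre and 13.2 for iSuRe-HadCre liver. The heart groups differed in markers as well. Alb, a hepatocyte gene, was at 22.4, 138 and 11.9 CPM for control, iSuRe-Cre and iSuRe-HadCre heart, with a UMI in 13.4%, 16.1% and 11.3% of the cells, and Apoa1, another hepatocyte gene, at 19.5, 77.6 and 14.8 CPM. Npr3, an endocardial gene, was at 59.4, 104 and 63.8 CPM and Kdr, a VEGF receptor of ECs, at 184, 480.4 and 831 CPM in that order. In liver Npr3 was at 173, 12.6 and 39.5 CPM for control, iSuRe-Cre and iSuRe-HadCre, with a UMI in 35.2%, 6.18% and 10.5% of the cells. In the summed levels of either organ, a difference in level and a difference in the cells sampled cannot be told apart.

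Cdkn1a, at chr17:29090976-29100727 on the plus strand of GRCm38, differed most between the heart groups. Its level was 161 CPM (147 to 176) for control heart, 499 CPM (484 to 514) for iSuRe-Cre heart and 244 CPM (227 to 262) for iSuRe-HadCre heart. The 3 intervals did not overlap, and iSuRe-HadCre lay between the other two. Relative to control, the level was 3.09 times (2.82 to 3.40) for iSuRe-Cre heart and 1.51 times (1.35 to 1.70) for iSuRe-HadCre heart, and iSuRe-HadCre was at 0.489 times (0.452 to 0.528) iSuRe-Cre. In the comparison of iSuRe-Cre with control heart, 98.1% of the 10639 genes measured, those with at least 50 UMIs over both groups, had a lower ratio than Cdkn1a. Among the 7163 genes with at least 200 UMIs it stood at rank 89 from the top.

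RefSeq (GRCm38.p6) promoter windows of 250 bases before and 50 bases after a start site were found for 6 of the 7 genes, 9 windows in all. The stretches before both Cdkn1a start sites are shown because p53 is known to act on this gene through sites upstream of it. Capitals mark the paired letters CATGNNNNNNCATG, the core letters of p53-type sites, the TATA letters TATAAG and the GC box GGGCGG, each searched on both strands. The stretches are chr17:29090729-29090978 and chr17:29093519-29093768, both on the plus strand, and the start sites lie 2790 bases apart.
Cdkn1a, upstream start: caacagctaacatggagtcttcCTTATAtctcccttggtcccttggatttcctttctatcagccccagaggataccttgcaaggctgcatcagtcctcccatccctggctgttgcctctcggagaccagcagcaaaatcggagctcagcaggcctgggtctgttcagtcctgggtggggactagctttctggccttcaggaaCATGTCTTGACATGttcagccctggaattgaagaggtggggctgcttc
Cdkn1a, downstream start: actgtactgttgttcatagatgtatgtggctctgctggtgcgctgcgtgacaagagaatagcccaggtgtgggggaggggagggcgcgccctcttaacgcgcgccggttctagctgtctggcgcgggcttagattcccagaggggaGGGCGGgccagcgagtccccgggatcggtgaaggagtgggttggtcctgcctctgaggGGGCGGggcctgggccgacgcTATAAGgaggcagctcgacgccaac
The stretch before the upstream start held CATGTCTTGACATG beginning 48 bases before the start, and CTTATA, the opposite-strand form of the TATA letters, 228 bases before it. The stretch before the downstream start held TATAAG 25 bases before the start and GGGCGG at 104 and 46 bases before it. The paired CATG letters were present in 0.624% of all 32544 RefSeq windows, TATAAG in 7.43% and GGGCGG in 35.9%. These matches describe letters only and no binding was measured.

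The iSuRe-Cre heart difference in Cdkn1a was spread over many cells. A Cdkn1a UMI was seen in 40.2% of control, 78.2% of iSuRe-Cre and 49.8% of iSuRe-HadCre heart ECs. With every cell thinned to 2000 UMIs the shares were 18.0%, 47.0% and 26.2%, in the same order. Erythroid progenitor-like cells, in which Cdkn1a was lowest, had a UMI in 4.65% of 43 cells (median depth 59985 UMIs), or 0.241% after thinning. The median cell of iSuRe-Cre heart was at 344 CPM, while the median cell of control and of iSuRe-HadCre heart had none. The tenth of cells with the most Cdkn1a UMIs gave 37.2% of all Cdkn1a UMIs in iSuRe-Cre heart, 65.0% for control heart and 59.6% for iSuRe-HadCre heart. Cells at or above 1000 CPM made up 15.9% of iSuRe-Cre, 4.33% of control and 6.43% of iSuRe-HadCre heart ECs.

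**Figure D1:**
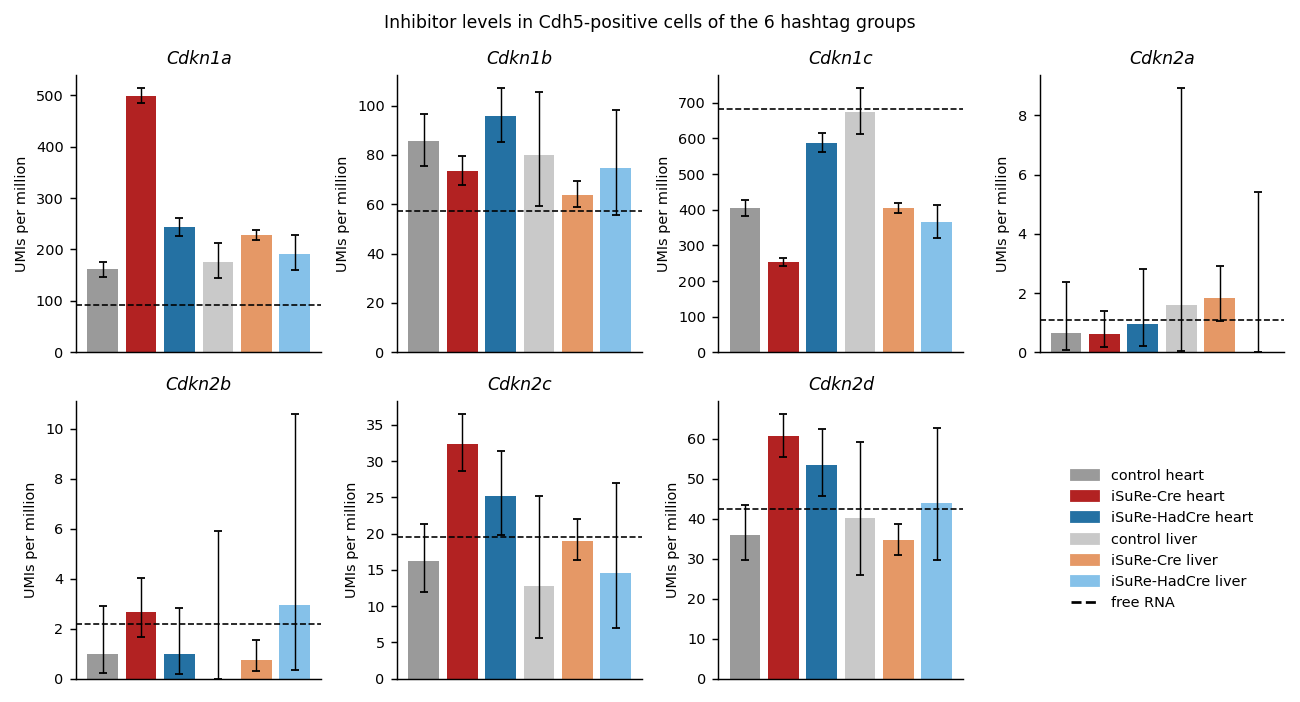
Levels of the 7 inhibitors (CPM, linear axis from 0) in Cdh5-positive cells of the 6 groups, with bars for the summed level, error lines for the exact 95% counting interval and a dashed line for free RNA, read from barcodes of 10 to 100 UMIs. Cdkn1a stands at 499 CPM for iSuRe-Cre heart against 161 for control heart, and Cdkn2a and Cdkn2b stay at or below 2.93 CPM in the 6 groups.

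In the liver, Cdkn1a differed less between groups. It was at 176 CPM (145 to 212) for control, 228 CPM (218 to 238) for iSuRe-Cre and 192 CPM (160.4 to 228) for iSuRe-HadCre liver. The ratio to control was 1.29 (1.07 to 1.58) for iSuRe-Cre and 1.09 (0.838 to 1.42) for iSuRe-HadCre, and only the former interval lay above 1. A single cell held 55 of the 110 Cdkn1a UMIs of control liver. Without the cell with the most UMIs in each group, an alternative chosen after seeing the data, the ratios were 2.32 for iSuRe-Cre and 1.81 for iSuRe-HadCre liver. The size of the liver difference therefore turned on 1 control cell. Over the alternatives, which include cells without an Mki67 UMI but not those with one, the ratio ranged from 1.29 to 2.63 for iSuRe-Cre and from 0.744 to 1.81 for iSuRe-HadCre, which fell below 1 without the Cdh5 criterion, at 0.744, and with HTODemux calls, at 0.959. In liver cells with no Mki67 UMI the ratios to control were 2.63 (1.93 to 3.70) for iSuRe-Cre and 1.66 (1.12 to 2.49) for iSuRe-HadCre, and in those with an Mki67 UMI they were on the other side of 1, at 0.468 (0.362 to 0.612) and 0.817 (0.558 to 1.19). The liver ratio of iSuRe-HadCre to iSuRe-Cre was 0.631 (0.498 to 0.790) without and 1.75 (1.28 to 2.34) with an Mki67 UMI. The control cells with an Mki67 UMI held 70 UMIs, 55 of them in that 1 cell. Without the top cell of each group on that side, the levels were 92.5 CPM for control, 144.1 for iSuRe-Cre and 210.1 for iSuRe-HadCre liver. Control was then lowest, so the opposite direction in cells with an Mki67 UMI turned on 1 control cell. The share of liver ECs with a Cdkn1a UMI, thinned to 2000 UMIs, was 19.9% for control, 26.1% for iSuRe-Cre and 24.1% for iSuRe-HadCre. Relative to heart, the liver level was 1.09 times (0.880 to 1.35) for control, 0.456 times (0.433 to 0.481) for iSuRe-Cre and 0.786 times (0.648 to 0.948) for iSuRe-HadCre.

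The heart difference in Cdkn1a was also present within narrower sets of cells. Among heart cells gated as capillary EC-like by Cdh5, Tcf15 and Fabp4, Cdkn1a was at 181 CPM in 137 control cells, 527 in 250 iSuRe-Cre cells and 227 in 128 iSuRe-HadCre cells. The ratios to control were 2.91 (2.60 to 3.27) and 1.25 (1.06 to 1.47). Among cells with no Mki67 UMI the levels were 141, 566 and 259 CPM, with ratios to control of 4.01 (3.55 to 4.53) and 1.83 (1.59 to 2.12). Among cells with an Mki67 UMI they were 211, 424 and 217 CPM, with ratios of 2.01 (1.72 to 2.35) and 1.03 (0.844 to 1.25). The iSuRe-HadCre ratio to control was thus above 1 in cells without Mki67, and its interval held 1 in cells with it, although the difference between those ratios was not tested. Within iSuRe-Cre heart, cells above the WPRE limit of 0.5 on the log-normalized scale and cells at or below it had Cdkn1a at 493 and 502 CPM, a ratio of 0.981 (0.918 to 1.05). In control heart these levels were 169.7 and 70.9 CPM, a ratio of 2.39 (1.50 to 4.07) on 18 UMIs in the 26 cells at or below the limit, and in iSuRe-HadCre heart they were 246 and 189.7 CPM, a ratio of 1.30 (0.842 to 2.11).

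**Figure D2:**
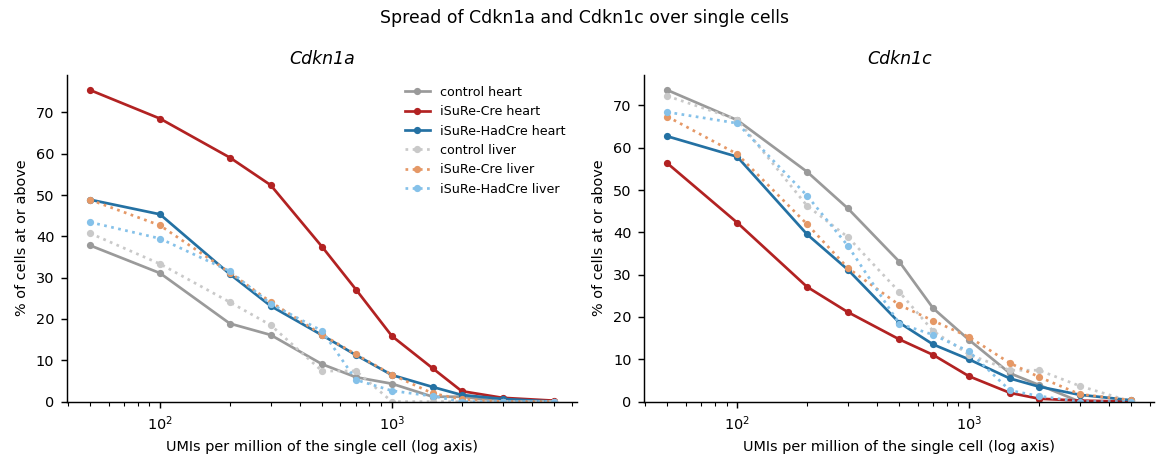
Percentage of ECs at or above a given level of Cdkn1a and of Cdkn1c, with the level of the single cell in CPM on a log axis and 1 line for each group. At 1000 CPM the iSuRe-Cre heart line is highest for Cdkn1a (15.9% of cells) and lowest for Cdkn1c (5.98% of cells).

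Because Cdkn1a is a p53 target, 22 other genes of the p53 pathway were read beside it, of which 21 were measured in the comparison of iSuRe-Cre with control heart. With a ratio above 2 or below 0.5 counted as past 2-fold, 4 were above and 1 was below, where 4.58% and 2.47% of all genes were. The median ratio of the list was 1.32, against 0.960 over all genes. The genes above were Perp, a membrane protein of apoptosis, at 4.85 times (2.26 to 12.4), Sesn2, a stress-induced regulator of mTOR signalling, at 2.39 times (1.57 to 3.81), Gtse1, a mitotic protein that counteracts p53, at 2.33 times (1.37 to 4.22), and Eda2r, a receptor of the TNF receptor family, at 2.30 times (1.75 to 3.07). Perp rested on 7 control UMIs. Tnfrsf10b, a death receptor, was at 0.454 times (0.349 to 0.592). Within the 2-fold limit, Mdm2, the ubiquitin ligase of p53, was at 1.88 times (1.56 to 2.29), and Bax, an effector of apoptosis, at 1.77 times (1.65 to 1.91). Other p53 targets went the other way, with Btg2, an antiproliferative gene, at 0.648 times (0.611 to 0.687) and Plk2, a polo-like kinase, at 0.705 times (0.657 to 0.757).

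In the same list, the comparison of iSuRe-HadCre with control heart had 0 genes above 2-fold and 1 below among 18 measured, where 4.37% of all genes were past 2-fold, with a median of 1.04 against 1.09 over all genes. The gene below was again Tnfrsf10b, at 0.497 times (0.352 to 0.697). Mdm2 was at 1.68 times (1.35 to 2.11), while Bax was at 0.894 times (0.810 to 0.986) and Phlda3, a repressor of Akt signalling, at 1.05 times (0.892 to 1.24). These comparisons share the control heart cells. Between the iSuRe groups in heart, 0 of 21 genes were above and 0 below 2-fold, where 7.86% of all genes were past it, and the median iSuRe-HadCre to iSuRe-Cre ratio was 0.787, against 1.15 over all genes. In liver the list medians were 0.992 for iSuRe-Cre and 1.09 for iSuRe-HadCre against control. Of 21 genes measured in iSuRe-Cre liver 1 was above and 1 below, where 14.7% of all genes were past 2-fold. These were Perp, at 4.01 times (0.692 to 161) on 1 control UMI, and Tnfrsf10b, at 0.323 times (0.196 to 0.562). Of 8 measured in iSuRe-HadCre liver 1 was above, where 4.00% of all genes were past 2-fold, and this was Mdm2, at 2.15 times (1.25 to 3.83). Between the iSuRe groups in liver 2 of 21 were below, where 12.3% of all genes were past 2-fold, namely Perp, at 0.228 times (0.00568 to 1.32), and Ddit4l, a stress-induced gene, at 0.385 times (0.0458 to 1.44), both with intervals that held 1.

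**Figure D3:**
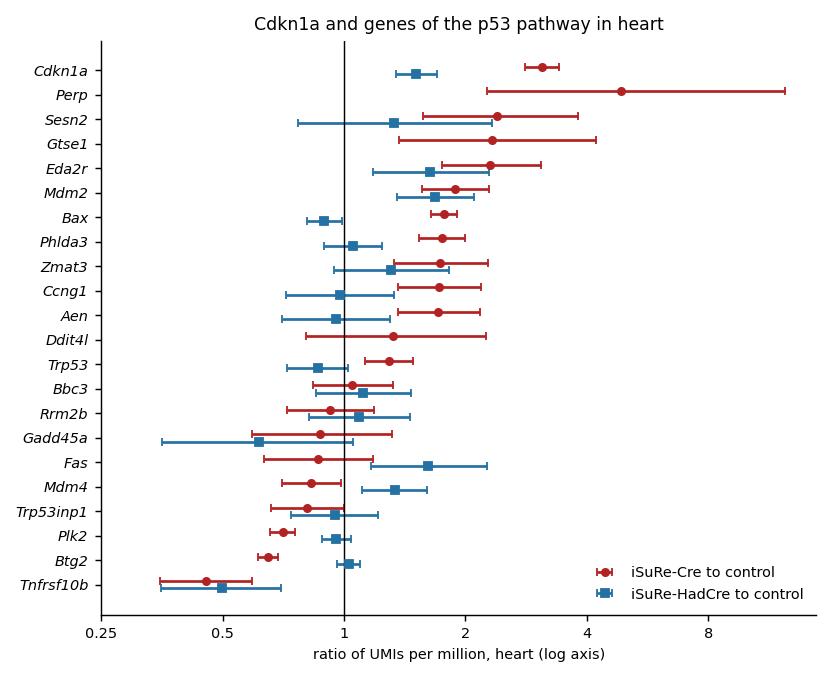
Ratio to control heart of Cdkn1a and the 21 measured genes of the p53 pathway, on a log axis, with red circles for iSuRe-Cre, blue squares for iSuRe-HadCre and lines for the exact 95% counting interval. Genes with under 50 UMIs over both groups have no blue square, and Cdkn1a is at 3.09 for iSuRe-Cre and 1.51 for iSuRe-HadCre.

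The study places the iSuRe-Cre transgene on chromosome 17, which also carries Cdkn1a. Genes within 250 kb of Cdkn1a were therefore read as well, a choice made after its values were seen. Of 7 measured genes, 0 were above and 0 below 2-fold in iSuRe-Cre against control heart, where 7.05% of all genes were past it, with ratios from 0.524 to 1.20. The nearest measured gene on the side of the chromosome start, Srsf3, a splicing factor, was at 1.20 times (1.12 to 1.28), and Pi16, a peptidase inhibitor, was lowest at 0.524 times (0.396 to 0.697). Whether the insertion bears on Cdkn1a was not tested.

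Past 2-fold, the inhibitors themselves numbered 2 of 5 measured in the comparison of iSuRe-Cre with control heart, both above, where 7.05% of all 10639 genes were past 2-fold and 4.58% were above. These were Cdkn1a and, just over the limit, Cdkn2c. In iSuRe-Cre heart cells above the WPRE limit, Cdkn2c was at 16.3 CPM, against 16.2 CPM in control heart. In the comparison of iSuRe-HadCre with control heart the count was 0 of 5, where 4.37% of 9562 genes were past 2-fold. Between the iSuRe groups in heart 1 inhibitor was above (Cdkn1c) and 1 below (Cdkn1a), where 7.86% of all genes were past 2-fold, 5.54% above and 2.32% below. The Cdkn1c call depended on the set of cells. Its ratio was 3.16 (2.83 to 3.52) in cells with an Mki67 UMI and 1.88 (1.74 to 2.03) in cells without one. In capillary EC-like cells it was 1.999 (1.78 to 2.24), at the limit. In cells below 2000 CPM of Cdkn1c, a cut on the level compared, Cdkn1c was at 320 CPM for iSuRe-HadCre and 231 CPM for iSuRe-Cre heart, within 2-fold. In liver no inhibitor was past 2-fold in iSuRe-Cre against control (0 of 5, 14.7% of all genes), in iSuRe-HadCre against control (0 of 4, 4.00%) or between the iSuRe groups (0 of 5, 12.3%). Cdkn2a and Cdkn2b had under 50 UMIs in each of these comparisons and were not counted.

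Cdkn1b, encoding p27, an inhibitor of Cdk2 complexes known to be regulated largely through protein turnover, differed little in its summed levels. It lies at chr6:134920401-134925513 on the plus strand. It was at 85.5 CPM (75.4 to 96.5) for control heart, 73.6 CPM (67.9 to 79.7) for iSuRe-Cre heart and 95.7 CPM (85.1 to 107) for iSuRe-HadCre heart. In liver it was at 80.1 CPM for control, 63.9 for iSuRe-Cre and 74.7 for iSuRe-HadCre. The heart ratios to control were 0.861 (0.743 to 0.999) and 1.12 (0.945 to 1.33), and those in liver were 0.798 (0.597 to 1.09) and 0.932 (0.618 to 1.41). Only the first of these intervals lay off 1, and narrowly. With a hashtag minimum of 50 UMIs the iSuRe-HadCre liver ratio was 0.597. Between the iSuRe groups in heart the ratio was 1.30 (1.13 to 1.50). In cells without an Mki67 UMI the iSuRe-HadCre and iSuRe-Cre levels were 96.7 and 51.8 CPM, and in cells with one they were 93.9 and 98 CPM. The heart ratios to control without an Mki67 UMI were 0.674 (0.550 to 0.828) for iSuRe-Cre and 1.26 (1.02 to 1.56) for iSuRe-HadCre. With one they were 0.919 (0.731 to 1.17) and 0.880 (0.659 to 1.18). Of 7 measured subunits of the ubiquitin ligases that target Cip/Kip proteins, 0 were past 2-fold in either iSuRe group against control in heart, with medians of 1.09 and 1.31, where 7.05% and 4.37% of all genes were past 2-fold and the medians over all genes were 0.960 and 1.09.

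Cdkn1c, encoding p57, was lower in iSuRe-Cre heart than in the other heart groups. It lies at chr7:143458339-143461050 on the minus strand. Its level was 405 CPM (383 to 429) for control heart, 253 CPM (243 to 264) for iSuRe-Cre heart and 588 CPM (561 to 616) for iSuRe-HadCre heart. In liver it was at 675 CPM (612 to 742) for control, 404 CPM (392 to 418) for iSuRe-Cre and 366 CPM (322 to 414) for iSuRe-HadCre. The ratios to control were 0.625 (0.582 to 0.671) and 1.45 (1.35 to 1.56) in heart, and 0.600 (0.542 to 0.665) and 0.543 (0.462 to 0.636) in liver. Free RNA, read from barcodes of 10 to 100 UMIs, held Cdkn1c at 684 CPM, above all 6 groups although within the interval of control liver, so Cdkn1c counts in ECs cannot be told apart from free RNA by level alone. For Cdkn1a the free RNA level was 92.1 CPM, below all 6 groups.

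Much of the summed Cdkn1c level came from few cells. In iSuRe-HadCre heart 11 of 311 cells were at or above 2000 CPM, a limit set after seeing the data, and they held 50.1% of all Cdkn1c UMIs, 1 cell alone holding 251 of 1825. In control heart 10 cells held 16.5% and in iSuRe-Cre heart 3 cells held 9.51%. In control liver 4 cells held 59.6%, in iSuRe-Cre liver 50 cells held 37.2% and in iSuRe-HadCre liver 1 cell held 20.0%. The fibroblast collagens Col1a2 and Col3a1 were high in these cells in each heart group and in iSuRe-Cre liver. They were at 822 and 616 CPM in those of control heart, 1054 and 1025 CPM in those of iSuRe-Cre heart, 702 and 968 CPM in those of iSuRe-HadCre heart and 714 and 698 CPM in those of iSuRe-Cre liver, against 75.3 to 127 CPM in the remaining cells of these 4 groups. In control liver Col1a2 was at 488 CPM and Col3a1 at 43.1 CPM, and the iSuRe-HadCre liver cell had neither. The control liver cells held the endocardial gene Npr3 at 833 CPM, against 90.2 CPM in the remaining control liver cells, and its part in the liver ratios was not tested. Without cells holding 5 or more collagen UMIs, an alternative chosen after seeing the data, the Cdkn1c ratios to control were 0.486 for iSuRe-Cre heart and 1.26 for iSuRe-HadCre heart. Below 2000 CPM, the Cdkn1c ratios to control were 0.665 (0.616 to 0.718) for iSuRe-Cre heart and 0.919 (0.839 to 1.01) for iSuRe-HadCre heart. In liver they were 0.870 (0.744 to 1.02) and 0.985 (0.799 to 1.22). This limit removes cells by the level that is compared, so these ratios describe the remaining cells only. With each cell weighted equally the iSuRe-HadCre heart ratio turned to 0.872, and without the Cdh5 criterion the iSuRe-HadCre liver ratio turned to 1.04. Over the alternatives, which include cells without an Mki67 UMI, the liver ratios ranged from 0.363 to 0.922 for iSuRe-Cre and from 0.411 to 1.04 for iSuRe-HadCre. In liver cells with an Mki67 UMI they lay on the other side of 1, at 2.22 (1.68 to 3.00) for iSuRe-Cre and 1.47 (1.01 to 2.16) for iSuRe-HadCre, so the direction of the liver difference depended on the side of this split. The median cell was at 248 CPM for control, 71.0 for iSuRe-Cre and 138 for iSuRe-HadCre heart. Thinned to 2000 UMIs, 44.3%, 25.5% and 34.1% of cells had a Cdkn1c UMI in the same order.

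Of the imprinted and flanking genes of the Cdkn1c domain, 5 were measured in heart and 0 were past 2-fold in either iSuRe group against control, where 7.05% of all genes were in iSuRe-Cre and 4.37% for iSuRe-HadCre. Their medians were 1.03 and 1.13, against 0.960 and 1.09 over all genes. Igf2, an imprinted growth factor gene of the same chromosome region, was at 1.07 times (0.844 to 1.36) and 1.17 times (0.884 to 1.55). In liver Igf2 was at 0.414 times (0.239 to 0.770) control in iSuRe-Cre, on 15 control UMIs. Between the iSuRe groups in liver it was at 3.09 times (1.83 to 5.00). By Mki67 it was at 0.388 times (0.292 to 0.509) for iSuRe-Cre heart and 0.450 times (0.272 to 0.717) for iSuRe-HadCre heart.

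Cdkn2c and Cdkn2d, encoding p18 and p19 of the INK4 family, had higher summed levels in both iSuRe hearts than in control heart. They lie at chr4:109660876-109667189 and chr9:21288410-21291407, both on the minus strand. Cdkn2c was at 16.2 CPM (12 to 21.4) for control, 32.4 CPM (28.6 to 36.5) for iSuRe-Cre and 25.1 CPM (19.9 to 31.4) for iSuRe-HadCre heart, with ratios to control of 2.00 (1.47 to 2.77) and 1.55 (1.07 to 2.27). Cdkn2d was at 36.0 CPM (29.5 to 43.4), 60.6 CPM (55.4 to 66.1) and 53.5 CPM (45.7 to 62.3), with ratios of 1.68 (1.37 to 2.09) and 1.49 (1.16 to 1.91). Between the iSuRe groups the intervals of the levels overlapped for both genes. Within iSuRe-Cre heart, cells above the WPRE limit of 0.5 held Cdkn2c at 16.3 CPM and Cdkn2d at 42.8 CPM. Cells at or below it held 40.4 and 69.4 CPM, which gave ratios of 0.404 (0.286 to 0.558) and 0.616 (0.497 to 0.759). The Cdkn2c level of iSuRe-Cre heart cells above the limit was thus close to that of control heart. Free RNA held Cdkn2c at 19.5 CPM (11.6 to 30.8) and Cdkn2d at 42.3 CPM (30.1 to 57.8). Both intervals held the control and the iSuRe-HadCre heart levels, so neither group can be told apart from free RNA by level alone. In liver Cdkn2c was at 12.8, 19.1 and 14.6 CPM and Cdkn2d at 40.1, 34.7 and 43.9 CPM for control, iSuRe-Cre and iSuRe-HadCre, all with overlapping intervals. Control and iSuRe-HadCre liver held 8 and 10 Cdkn2c UMIs.

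In cells without an Mki67 UMI the intervals of all 4 of these heart ratios held 1. There Cdkn2c was at 0.631 times (0.344 to 1.17) control in iSuRe-Cre heart and 0.464 times (0.187 to 1.06) for iSuRe-HadCre heart, and Cdkn2d at 0.934 times (0.658 to 1.34) and 1.19 times (0.798 to 1.77). In cells with an Mki67 UMI, Cdkn2c was at 1.93 times (1.30 to 2.96) and 1.94 times (1.23 to 3.13) and Cdkn2d at 1.56 times (1.18 to 2.09) and 1.49 times (1.08 to 2.09). The difference between ratios in cells with and without Mki67 was not tested. The share of cells with an Mki67 UMI was 17.3% (12.9 to 22.5) for control, 37.2% (32.7 to 42.0) for iSuRe-Cre and 19.9% (15.6 to 24.8) for iSuRe-HadCre heart, and 6.20%, 17.8% and 10.9% when cells were thinned to 2000 UMIs. In liver the thinned shares were 12.6%, 8.71% and 11.2%.

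Mki67 marks cells in the division cycle, so each group was divided by it and the inhibitors were compared between both sides. The sides differed in depth, with median UMIs per cell of 18676 with and 8067 without an Mki67 UMI in control heart, 21548.5 and 13702 for iSuRe-Cre heart, and 12558 and 6514 for iSuRe-HadCre heart. Past 2-fold were 1 of 4 measured inhibitors in control heart (where 7.56% of all genes were, and 4.89% were above), 2 of 5 for iSuRe-Cre heart (8.54%, 4.89% above) and 2 of 5 for iSuRe-HadCre heart (9.33%, 6.43% above), all above. In liver they were 1 above and 1 below of 3 for control (13.7%, 5.11% above and 8.63% below), 2 above of 5 for iSuRe-Cre (8.14%, 6.36% above) and 0 of 3 for iSuRe-HadCre (11.7%).

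Cdkn2c and Cdkn2d were the inhibitors with the clearest link to Mki67. Cdkn2c was at 32.1 CPM with and 9.73 CPM without an Mki67 UMI in control heart (3.30 times, 1.81 to 6.12), 62.0 and 6.14 CPM for iSuRe-Cre heart (10.1 times, 6.76 to 15.6), and 62.3 and 4.51 CPM for iSuRe-HadCre heart (13.8 times, 6.87 to 31.5). In iSuRe-Cre liver it was at 43.1 and 9.33 CPM (4.62 times, 3.36 to 6.39), and in iSuRe-HadCre liver all 10 UMIs lay in cells with Mki67. Control liver, with 4 and 4 UMIs, gave 1.87 times (0.348 to 10.0). Every ratio of Cdkn2c that could be formed was thus above 1, although the interval of control liver held 1. Cdkn2d was at 66.5 and 23.6 CPM for control heart (2.82 times, 1.90 to 4.19), 104 and 22.1 CPM for iSuRe-Cre heart (4.71 times, 3.77 to 5.94), 99.3 and 28.1 CPM for iSuRe-HadCre heart (3.54 times, 2.54 to 4.97) and 60.9 and 24.1 CPM for iSuRe-Cre liver (2.53 times, 2.02 to 3.17). In control and iSuRe-HadCre liver its ratios were 1.72 (0.719 to 4.10) and 1.46 (0.627 to 3.22), on 25 and 30 UMIs. Among cells of 4000 to 20000 UMIs the Cdkn2c ratios were 20.7 for iSuRe-Cre heart and 26.3 for iSuRe-HadCre heart, and those of Cdkn2d 7.64 and 5.31, larger than over all depths. Cdkn2c in control heart, at 49 UMIs, was under the minimum for the count of genes past 2-fold.

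**Figure D4:**
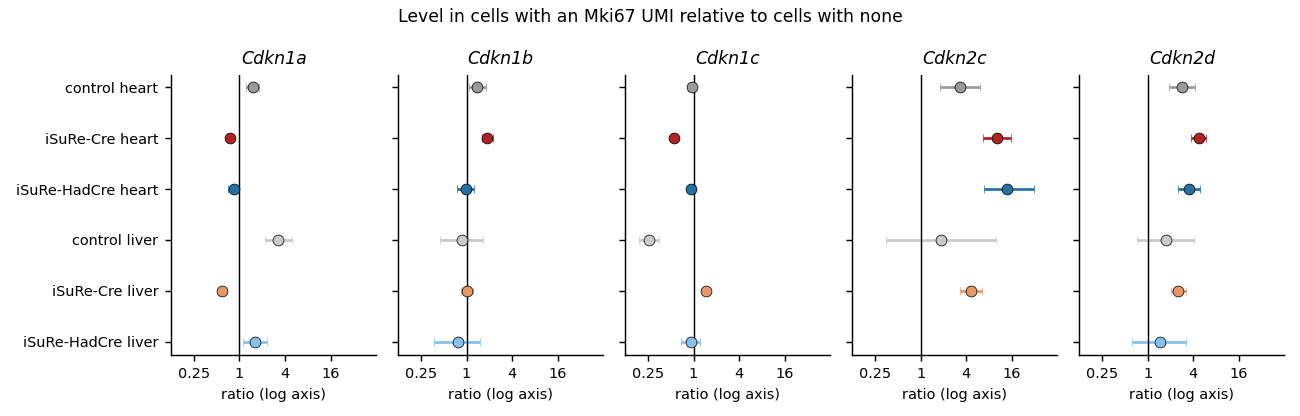
Level in cells with an Mki67 UMI relative to cells with none, for the 5 inhibitors with enough UMIs, on a log axis, with 1 point for each group and lines for the exact 95% counting interval. Cdkn2c and Cdkn2d lie to the right of 1 in the groups shown, whereas Cdkn1a and Cdkn1c lie on both sides, and Cdkn2c in iSuRe-HadCre liver has no point because cells without Mki67 had 0 UMIs.

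The stretches before the start sites of these INK4 genes are shown because both genes were higher in cells with Mki67, and letters common before cell-cycle genes were searched in their windows. Capitals mark GGGCGG on either strand. The E2F letters searched were TTTCGCGC, TTTGGCGC and TTTCCCGC, and the CHR letters of late cell-cycle genes were TTTGAA, each on both strands. The stretches are chr4:109666757-109667006 and chr9:21291210-21291459 of GRCm38.p6, both on the minus strand. RefSeq places another Cdkn2c start inside the gene, with its window at chr4:109665323-109665622. That window is not printed and held none of the letters searched.
Cdkn2c: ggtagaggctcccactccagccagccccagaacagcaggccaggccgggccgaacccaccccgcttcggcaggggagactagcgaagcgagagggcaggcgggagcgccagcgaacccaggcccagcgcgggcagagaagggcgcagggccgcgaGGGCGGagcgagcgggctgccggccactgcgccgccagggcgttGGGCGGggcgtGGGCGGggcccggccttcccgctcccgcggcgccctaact
Cdkn2d: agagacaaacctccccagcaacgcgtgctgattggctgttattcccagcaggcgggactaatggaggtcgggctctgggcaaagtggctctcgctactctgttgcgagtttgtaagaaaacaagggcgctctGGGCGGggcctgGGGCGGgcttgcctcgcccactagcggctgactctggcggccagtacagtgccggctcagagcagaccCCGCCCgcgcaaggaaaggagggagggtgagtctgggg
Each stretch held GGGCGG or its opposite-strand form CCGCCC at 3 places, and neither of their windows held any of the E2F forms, which were present in 1.86% of all 32544 windows. Among the 9 windows of the inhibitors, 1 of Cdkn2a held TTTCCCGC, beginning 99 bases before its start. The CHR letters, found in 17.8% of all windows, were present only in that of Cdkn2b.

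The machinery that these inhibitors restrain was also read by Mki67. Of the B-type cyclins and Cdk1, the kinase module of mitosis, 3 of 3 were above 2-fold in cells with Mki67 for control heart, iSuRe-Cre heart, iSuRe-HadCre heart and iSuRe-Cre liver, where 4.89%, 4.89%, 6.43% and 6.36% of all genes were. Cdk1 was at 10.1, 12.6 and 11.1 times in the hearts in the same order and at 5.93 times for iSuRe-Cre liver. Of the D-type cyclins and their kinases, which INK4 proteins bind, 0 of 5 were past 2-fold in iSuRe-Cre heart and iSuRe-Cre liver, and 1 of 5, Cdk4, was above in control heart, at 2.16 times (1.80 to 2.59), and in iSuRe-HadCre heart, at 2.02 times (1.70 to 2.39). Of 11 Rb family and E2F genes measured in iSuRe-Cre heart, 5 were above, where 4.89% of all genes were, namely E2f8 at 17.3 times (7.63 to 48.3), E2f2 at 7.56 times (3.40 to 19.8), E2f7 at 4.33 times (3.03 to 6.33), Rbl1, the gene of p107, at 2.95 times (2.11 to 4.17) and E2f1 at 2.28 times (1.58 to 3.33). In control heart E2f7 was above, at 2.60 times (1.64 to 4.14), and Rbl2, the gene of p130, below, at 0.437 times (0.189 to 0.896), of 7 measured, and in iSuRe-HadCre heart E2f7 and Rbl1 were above, at 3.78 and 3.67 times, of 9. Of the E- and A-type cyclins and Cdk2, Ccna2 was at 25.8, 65.0 and 19 times in the hearts, Ccne2 at 5.69 and 5.28 times in both iSuRe hearts, and Ccne1 at 5.27 times for iSuRe-Cre heart. Cks1b, the cofactor that presents p27 to its ubiquitin ligase, was above in each heart at 4.68, 5.64 and 6.22 times. Skp2, the subunit that recognises p27, and Dtl, which targets p21, were above in both iSuRe hearts, at 2.54 and 3.36 times and at 3.56 and 3.6 times.

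Between groups in heart, all 3 genes of the B-type cyclin and Cdk1 list were above 2-fold in iSuRe-Cre against control, where 4.58% of all genes were, with Ccnb2 at 3.12 times (2.52 to 3.90), Ccnb1 at 2.92 times (2.23 to 3.88) and Cdk1 at 2.06 times (1.78 to 2.39). Ccna2, the cyclin of S phase and early mitosis, was at 2.41 times (1.90 to 3.09) and Ccnd1, a G1 cyclin that partners Cdk4 and Cdk6, at 2.10 times (1.99 to 2.23). Of the proliferation genes, Mki67 itself was at 2.63 times (2.27 to 3.06) and Top2a, a topoisomerase of dividing cells, at 2.08 times (1.87 to 2.33) for iSuRe-Cre heart, and Mki67 was at 2.56 times (2.18 to 3.02) for iSuRe-HadCre heart. In iSuRe-HadCre heart Ccnb2 alone of the cyclins and kinases listed was above, at 2.03 times (1.59 to 2.62), where 4.37% of all genes were past 2-fold in either direction. iSuRe-Cre heart was thus the group with the highest Cdkn1a and, over all its cells, the largest share of cells with an Mki67 UMI. Above the WPRE limit that share was 29.7% for iSuRe-Cre heart, 20.9% for iSuRe-HadCre heart and 22.7% for iSuRe-HadCre liver. After thinning, the shares above the limit were 10.9%, 11.5% and 12.5% in the same order, so iSuRe-Cre heart was no longer largest. At or below the limit the thinned share of iSuRe-Cre heart was 21.3%. Its Cdkn1a differed little across the limit, at 493 CPM above and 502 CPM at or below it. Of 11 Rb family and E2F genes measured in iSuRe-Cre heart 0 were past 2-fold against control, where 7.05% of all genes were. Of 10 for iSuRe-HadCre heart 0 were, where 4.37% of all genes were.

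Cdkn1a did not differ by Mki67 in 1 direction. It was lower in cells with an Mki67 UMI in iSuRe-Cre heart, at 424 against 566 CPM (0.749 times, 0.703 to 0.797), and in iSuRe-Cre liver, at 150.4 against 259 CPM (0.580 times, 0.519 to 0.647). It was also lower in iSuRe-HadCre heart, at 217 against 259 CPM (0.836 times, 0.714 to 0.976). It was higher in control heart, at 211 against 141 CPM (1.49 times, 1.24 to 1.80), in control liver, at 322 against 98.4 CPM (3.27 times, 2.18 to 4.95), and in iSuRe-HadCre liver, at 263 against 164 CPM (1.60 times, 1.11 to 2.31). Without the top cell of each side the control liver ratio was 1.10, and among cells of 4000 to 20000 UMIs it was 0.465. In control heart the direction reversed when Mki67 was replaced by Top2a, at 0.558 times, or when 2 Mki67 UMIs were required, at 0.961 times. The iSuRe-HadCre heart ratio ranged from 0.554 to 0.886 over the alternatives. The median p53 pathway gene lay below 1 in each heart, at 0.773, 0.751 and 0.749 times for control, iSuRe-Cre and iSuRe-HadCre. The median over all genes there was at 0.980, 0.969 and 0.965 times. In liver the list median was at 1.18, 0.713 and 0.629 times in the same order, on 6, 21 and 5 genes measured. In control liver 1 of 6 was above 2-fold and 0 below, where 13.7% of all genes were past it. Of this list 2 of 16 genes were below 0.5-fold in control heart, Eda2r at 0.485 times (0.220 to 0.967) and Tnfrsf10b at 0.346 times (0.178 to 0.621), 1 of 21 for iSuRe-Cre heart, Perp at 0.308 times (0.178 to 0.511), and 1 of 16 for iSuRe-HadCre heart, Eda2r at 0.360 times (0.201 to 0.611), and none was above, where 7.56%, 8.54% and 9.33% of all genes were past 2-fold in either direction. In iSuRe-Cre liver 4 of 21 were below (Trp53inp1, Zmat3, Tnfrsf10b and Ddit4l, at 0.440, 0.456, 0.443 and 0.452 times) and 2 above (Perp and Gtse1, at 2.31 and 2.10 times), where 8.14% of all genes were past 2-fold and 6.36% above.

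A Cdkn1a UMI and an Mki67 UMI often fell in the same cell. In iSuRe-Cre heart 40.0% (34.8 to 45.4) of 340 cells with a Cdkn1a UMI and 27.4% (18.7 to 37.5) of 95 cells without one had an Mki67 UMI. In control heart these shares were 25.5% and 11.8%, and in iSuRe-HadCre heart 27.1% and 12.8%. Cells with a Cdkn1a UMI were deeper, at a median of 18400 against 10773 UMIs in iSuRe-Cre heart. Thinned to 2000 UMIs for Mki67 the shares were 18.6% and 15.3% for iSuRe-Cre, 9.46% and 4.02% for control and 15.2% and 6.61% for iSuRe-HadCre heart.

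Cdkn1b and Cdkn1c differed by Mki67 in some groups. Cdkn1b was higher in cells with an Mki67 UMI in iSuRe-Cre heart, at 98 against 51.8 CPM (1.89 times, 1.60 to 2.24), and in control heart, at 107 against 76.9 CPM (1.39 times, 1.06 to 1.80). With Top2a in place of Mki67 the control heart ratio turned to 0.986. In iSuRe-HadCre heart it was at 93.9 and 96.7 CPM (0.971 times, 0.757 to 1.24). Cdkn1c was lower in iSuRe-Cre heart, at 179 against 319.5 CPM (0.559 times, 0.510 to 0.613), and higher in iSuRe-Cre liver, at 521 against 357 CPM (1.46 times, 1.36 to 1.56). In control and iSuRe-HadCre heart its intervals held 1, at 0.948 (0.834 to 1.08) and 0.938 (0.850 to 1.03). The iSuRe-HadCre heart ratio was 0.285 among cells of 4000 to 20000 UMIs and 1.16 with Top2a in place of Mki67, so no direction is read from it. In control liver it was at 0.257 times (0.188 to 0.346), where a single cell held 180 of the 370 UMIs of the cells without Mki67. With any Cdh5 UMI taken as enough it was 0.759, and with Top2a 0.539. The ratios of iSuRe-Cre heart and liver ranged from 0.357 to 0.603 and from 1.15 to 2.26 over the alternatives.

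Cdkn2a and Cdkn2b, neighbours 11645 bases apart on chromosome 4 and the members of the INK4 family best known for senescence, were close to the limit of detection. Cdkn2a, at chr4:89274471-89294653, encodes p16 and, in another reading frame, the ARF protein, and the counts cannot tell both products apart. It had 2, 5 and 3 UMIs in control, iSuRe-Cre and iSuRe-HadCre heart, and in the livers 1, 17 and 0. The 0 of iSuRe-HadCre liver corresponds to a limit of 4.39 CPM at 3 counts, and its exact 95% interval reaches 5.4 CPM. In iSuRe-Cre heart all 5 UMIs and in iSuRe-Cre liver 14 of 17 lay in cells with an Mki67 UMI. Cdkn2b, at chr4:89306299-89311039, had 3, 22 and 3 UMIs in the hearts and 0, 7 and 2 in the livers. The ratio of Cdkn2b in iSuRe-Cre heart to control heart was 2.68 (0.804 to 14), so a difference was not detectable at this depth. Of 5 measured Polycomb genes that repress this locus, 0 were past 2-fold in iSuRe-Cre against control heart, where 7.05% of all genes were, with a median of 0.949 against 0.960 over all genes. In iSuRe-Cre against control liver Cbx8, another of these genes, was at 3.47 times (0.597 to 139.8), on 1 control UMI. Ezh2, the methyltransferase among them, was above 2-fold in cells with Mki67, at 2.90, 2.70 and 2.70 times for control, iSuRe-Cre and iSuRe-HadCre heart.

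The same library held many cells without a hashtag, 11771 of the 14348 barcodes that passed the quality limits, and these let the inhibitors be read in other cell types. Cells were gated by UMIs of marker genes, which gave 14 populations of at least 10 cells, after leaving out 183 barcodes in several gates. Between 93.3% and 97.7% of the cells of the non-endothelial populations were in no hashtag group, having no hashtag or several. The exception was the neutrophil-lineage-like cells, at 47.3%. The organ of most non-endothelial cells is therefore not known. Levels are summed over a population, and each population is 1 sum from 1 library.

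The highest summed Cdkn1a levels were those of capillary EC-like, sinusoidal EC-like and macrophage-like cells. It was at 365 CPM (355 to 375) in 878 capillary EC-like cells, 238 CPM (227 to 251) in 555 sinusoidal EC-like cells and 224 CPM (203 to 247) in 85 macrophage-like cells, and the intervals of the last pair overlapped. Free RNA held Cdkn1a at 92.1 CPM (73.6 to 114), and the endocardial-like cells and the populations given after them were under that level, so their places are not read as expression. Large-vessel EC-like cells were at 136 CPM, peripheral neuron-like cells at 120.0 CPM and endocardial-like cells at 83.4 CPM (72.1 to 96.0). Large-vessel EC-like and neuron-like cells did not differ beyond counting error (1.13 times, 0.777 to 1.66). Neutrophil-lineage-like cells were at 43.5 and basal keratinocyte-like cells at 42.4 CPM, hepatocyte-like cells at 24.7 and mesenchymal cells at 21.4 CPM, and Fabp7 and Hes5 cells, smooth muscle-like cells and chondrocyte-like cells at 14.9 to 16.1 CPM. Erythroid progenitor-like cells were last at 1.19 CPM, with 3 UMIs in 43 cells. The capillary EC-like sum included the 250 iSuRe-Cre heart cells described above, at 527 CPM, and the 137 control heart cells of that gate were at 181 CPM. The sinusoidal EC-like sum included 448 iSuRe-Cre liver cells at 254 CPM, and the 12 iSuRe-HadCre liver cells of that gate were at 135 CPM (69.9 to 236). The places of both EC-like populations in this order thus depended on the groups in the sum. The endocardial-like cells of iSuRe-Cre heart, 36 in number, were at 60.1 CPM (41.4 to 84.4).

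Cdkn1c was highest outside the endothelium. It was at 3808 CPM (3721 to 3897) in chondrocyte-like cells, 2363 CPM in mesenchymal cells, 1251 CPM in smooth muscle-like cells, 1113 CPM in hepatocyte-like cells and 825 CPM (788 to 863) in endocardial-like cells, each step larger than counting error. Sinusoidal and capillary EC-like cells were at 339.6 CPM (325 to 354) and 304 CPM (294 to 313), below the 684 CPM of free RNA, and erythroid progenitor-like cells were at 17.0 CPM. In mesenchymal cells 99.6% had a Cdkn1c UMI and 12.8% a Cdkn1a UMI. Endocardial-like cells were the EC-type population with the highest Cdkn1c level.

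**Figure D5:**
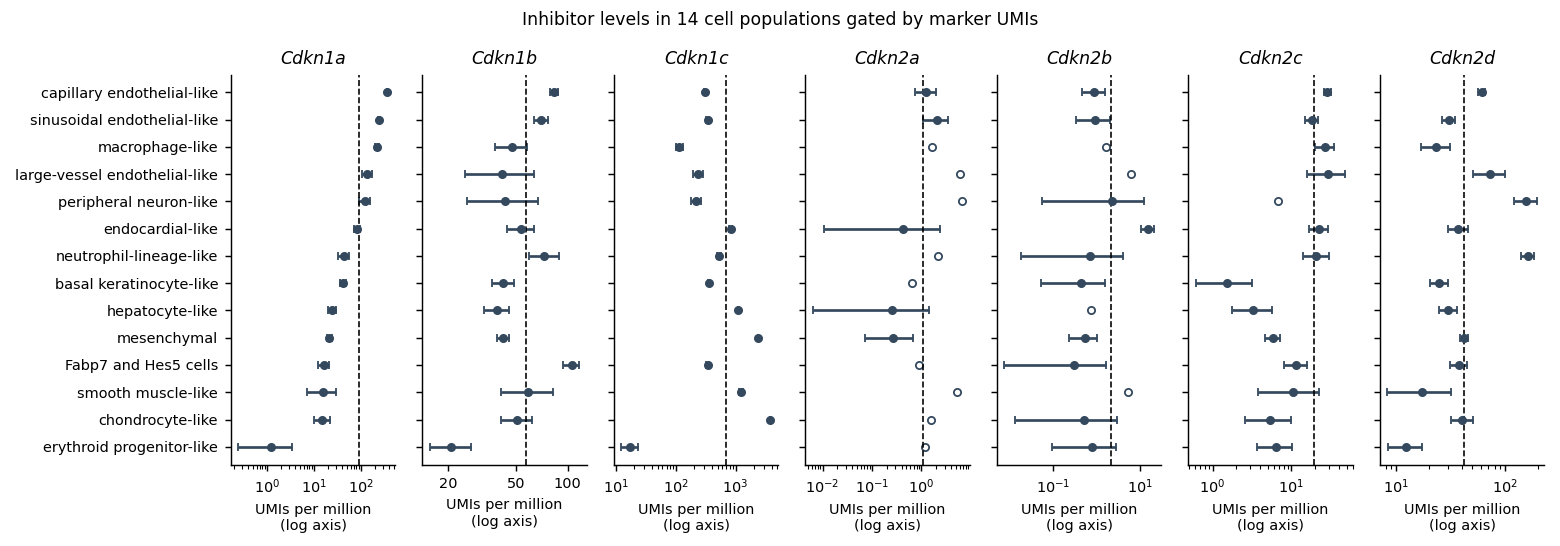
Levels of the 7 inhibitors in 14 populations gated by marker UMIs, ordered by Cdkn1a, in CPM on log axes that differ between panels, with points for the summed level and lines for the exact 95% counting interval. Open circles mark populations with 0 UMIs at the level of 3 counts, and dashed lines mark free RNA. Cdkn1a is highest in capillary EC-like cells (365 CPM, a sum of groups with 527 CPM for iSuRe-Cre heart and 181 CPM for control heart) and Cdkn1c in chondrocyte-like cells (3808 CPM).

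The other inhibitors had orders of their own. Cdkn2d was highest in neutrophil-lineage-like cells at 160.4 CPM (140.1 to 183) and peripheral neuron-like cells at 154 CPM (119.6 to 195), followed by large-vessel EC-like cells at 72.1 and capillary EC-like cells at 60.6 CPM. Cdkn2c was at 18.0 to 28.8 CPM in the EC-like, macrophage-like and neutrophil-lineage-like populations, and at 1.53 to 11.5 CPM in the others with a UMI. Free RNA held Cdkn2c at 19.5 CPM (11.6 to 30.8), and none of these levels lay above that interval. Among the 5 inhibitors with at least 200 UMIs over the populations, Cdkn1b spanned the narrowest range as a ratio of highest to lowest level. It was at 105 CPM (94.3 to 117) in Fabp7 and Hes5 cells and 83.1 CPM in capillary EC-like cells. The lower end was 38.5 CPM in hepatocyte-like and 21 CPM in erythroid progenitor-like cells. Free RNA held Cdkn1b at 57.4 CPM (43.0 to 75.1), above that lower end, so the range is not read as a range of expression. Cdkn2b was at 15.0 CPM (10.4 to 20.8) in endocardial-like cells, on 35 UMIs, and at most 2.26 CPM in any other population. Cdkn2a reached 2.04 CPM in sinusoidal EC-like cells, on 13 UMIs, and 1.26 CPM in capillary EC-like cells, on 17 UMIs.

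Within several populations, Cdkn2c and Cdkn2d were higher in cells with an Mki67 UMI. The EC-like populations include cells of the hashtag groups compared above, so their ratios are not separate from those. For Cdkn2c the ratio was 10.1 (5.22 to 22.0) in mesenchymal cells, 7.76 (5.83 to 10.5) in capillary EC-like cells, 6.88 (2.21 to 34.6) in macrophage-like cells and 3.36 (1.86 to 6.20) in endocardial-like cells. For Cdkn2d it was 4.38 (1.58 to 16.9) in macrophage-like cells, 4.37 (2.41 to 8.72) in Fabp7 and Hes5 cells, 3.00 (2.58 to 3.50) in capillary EC-like and 2.04 (1.73 to 2.40) in mesenchymal cells. In hepatocyte-like cells the ratios were below 1, at 0.803 (0.537 to 1.22) for Cdkn2d and 0.406 (0.117 to 1.46) for Cdkn2c, with intervals that held 1. Cdkn1c was lower with Mki67 in smooth muscle-like cells, at 0.517 times (0.434 to 0.615), mesenchymal cells, at 0.755 times (0.739 to 0.771), and chondrocyte-like cells, at 0.745 times (0.709 to 0.782). It was also lower in Fabp7 and Hes5 cells, at 0.273 times (0.242 to 0.309), and capillary EC-like cells, at 0.704 times (0.660 to 0.751). It was higher in sinusoidal EC-like cells, at 1.81 times (1.66 to 1.97), and neutrophil-lineage-like cells, at 1.27 times (1.08 to 1.50). In Fabp7 and Hes5 cells, both of these EC-like populations and neutrophil-lineage-like cells, each side was under the 684 CPM of free RNA. Their ratios are therefore not read as expression. Cdkn1a was lower in sinusoidal EC-like cells, at 0.401 times (0.347 to 0.462), and in capillary EC-like cells, at 0.781 times (0.737 to 0.828). The capillary EC-like sum pooled heart groups that went both ways over all their ECs, at 1.49 times for control and 0.749 for iSuRe-Cre. In hepatocyte-like cells the ratio was 0.334 (0.220 to 0.507), at 16.3 and 48.7 CPM. These levels were under the 92.1 CPM of free RNA, so that ratio is not read as expression.

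Across the 14 populations, the genes whose log2 level was most like that of each inhibitor are given as a description, since all populations come from 1 library and share its free RNA. With Cdkn1a the highest Pearson r among 12202 genes was 0.910 for Ubl3, followed by Tbc1d22a, Vav3, Ripk2 and C2cd2l. With Cdkn1c it was 0.947 for Peg3, itself an imprinted gene, followed by Sec23a, Pdxdc1, Itm2a and Gpc3. With Cdkn2c it was 0.919 for Adgre5, followed by Gnai2, Sp110, Hlx and Dtx3l. With Cdkn2d it was 0.924 for Lpcat4, followed by Slc27a4, Fis1, Slc35a5 and Cdk5. With Cdkn1b it was 0.798 for Hopx, followed by Nes, Egfem1, Ccl21a and Pimreg. Cdkn2a and Cdkn2b, with 36 and 69 UMIs over the populations, were not searched.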

How the data were processed

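The authors deposited raw UMI counts per gene and barcode for 1 postnatal 10x library, with hashtag counts as further features. Per the labels and the file header they used Cell Ranger 7.1.0, GRCm38 and Seurat. The 2 samples in the labels are the gene expression and hashtag reads of this library.

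Barcodes with 2000 to 75000 gene UMIs, over 500 genes and mitochondrial and haemoglobin shares under 5% were kept (14348 of 2755147). A group was called from 1 hashtag with at least 25 UMIs and 5 times its median. 186 barcodes with several hashtags were left out of the groups but not of the gated populations. No other doublet caller was run, and 2 hashtags and 5 multiplexing tags without a group were not used. Counts were summed per group and divided by gene UMIs (Python 3.11.15, numpy 2.4.6, scipy 1.17.1, pandas 2.3.3). Intervals are exact Poisson (levels), binomial (shares) and conditional binomial (ratios) at 95%. Genes with at least 50 UMIs over both groups were counted past 2-fold. Seurat 5.3.0 in R 4.3.3 gave the HTODemux alternative. Other alternatives changed the Cdh5, WPRE, hashtag, haemoglobin, mitochondrial and depth limits, the normalization, the free RNA, the Mki67 call and the gates. On simulated counts for iSuRe-Cre against control heart, 100% of 200 changed genes among 10637 were recovered and 96.0% of intervals held the true ratio. The simulation drew independent Poisson counts, with changes set well past the 2-fold limit. It held no clumping of UMIs in single cells and no spread between animals, so it checks the calculation only.

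The members and lists were chosen with earlier results of these data known. Text names all 7 inhibitors, list genes past 2-fold with at least 50 UMIs in the comparisons between groups and a selection of those by Mki67, the 5 genes most like each inhibitor over populations (log2 of CPM plus 10, at least 200 UMIs) and the 5 highest and lowest genes as a scale. Further list genes (Mdm2, Bax, Btg2, Plk2, Phlda3 and Igf2 in heart) and the neighbours of Cdkn1a were named after their values were seen. Gate minimums and the 2000 CPM limit for Cdkn1c were also set after seeing the data.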

Additional observations from a re-analysis of the deposited data

Results flagged for a closer look

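The ratio of Cdkn1a in cells with an Mki67 UMI to cells with none lay on opposite sides of 1 in different groups. It was 1.49 for control heart, 3.27 for control liver and 1.60 for iSuRe-HadCre liver, and 0.749 for iSuRe-Cre heart, 0.580 for iSuRe-Cre liver and 0.836 for iSuRe-HadCre heart, each with an interval that did not hold 1. The difference between the groups was not tested, since each group is 1 sample. The control heart value changed direction with the marker used for division, and that of control liver with the depth of the cells taken.

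The ratio of Cdkn1c by Mki67 was 0.257 in control liver and 0.559 in iSuRe-Cre heart but 1.46 in iSuRe-Cre liver, a difference that was not tested. The control liver ratio ranged from 0.234 to 0.759 over the alternatives. Cdkn1c in iSuRe-HadCre relative to control was 1.45 in heart and 0.543 in liver, opposite in direction between the organs, and this difference was not tested either. In cells with an Mki67 UMI it was 1.45 in heart and 1.47 in liver, the same direction, and in cells without one 1.46 and 0.411. Both values rested in large part on few cells with high Cdkn1c.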

How the results depend on the processing

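Of the ratios between groups recomputed under the alternatives, 339 kept their direction and moved by less than their counting interval, 91 moved further and 5 reversed. These counted alternatives include cells without an Mki67 UMI but not those with one. A ratio is counted as reversed where its reported interval did not hold 1 and the alternative lay on the other side of 1, so ratios whose reported interval held 1 could cross it without being counted. For the Mki67 ratios the numbers were 93, 28 and 4, and for the population levels 112 and 62 with no reversal possible. The Cdkn1a ratio of iSuRe-Cre to control heart ranged from 2.77 to 4.01 over these alternatives, the latter in cells without an Mki67 UMI, and was 2.01 in cells with one. The cause of the changes below was not tested, and values are ratios unless in CPM. With any Cdh5 UMI taken as enough, Cdkn1c against control was at 1.58 for iSuRe-HadCre heart and 0.933 for iSuRe-HadCre liver, and Cdkn1c by Mki67 was at 0.845 for iSuRe-HadCre heart, 0.759 for control liver and 0.329 for iSuRe-HadCre liver. Without the Cdh5 criterion, Cdkn1a against control was at 1.58 for iSuRe-Cre liver and 0.744 for iSuRe-HadCre liver, and Cdkn1a in iSuRe-HadCre against iSuRe-Cre was at 0.470 for liver. Cdkn1c against control was at 0.572 for iSuRe-Cre heart, 0.541 for iSuRe-Cre liver and 1.04 for iSuRe-HadCre liver. With WPRE above 0.5 required in the iSuRe groups, Cdkn1c against control was at 0.738 for iSuRe-Cre heart and 0.690 for iSuRe-Cre liver. With a hashtag minimum of 10 UMIs, Cdkn1c against control was at 0.556 for iSuRe-Cre heart, 1.18 for iSuRe-HadCre heart, 0.480 for iSuRe-Cre liver and 0.790 for iSuRe-HadCre liver. With a hashtag minimum of 50 UMIs, Cdkn1a against control was at 3.53 for iSuRe-Cre heart, 1.33 for iSuRe-HadCre heart, 2.07 for iSuRe-Cre liver and 1.48 for iSuRe-HadCre liver, and Cdkn1a in iSuRe-HadCre against iSuRe-Cre was at 0.375 for heart. Cdkn1b against control was at 0.593 for iSuRe-Cre liver and 0.597 for iSuRe-HadCre liver, and Cdkn1c against control was at 0.490 for iSuRe-Cre heart, 1.72 for iSuRe-HadCre heart and 0.363 for iSuRe-Cre liver. With HTODemux calls, Cdkn1a against control was at 2.77 for iSuRe-Cre heart, and Cdkn1b against control was at 0.931 for iSuRe-HadCre heart. Cdkn1c against control was at 0.516 for iSuRe-Cre heart, 1.03 for iSuRe-HadCre heart, 0.519 for iSuRe-Cre liver and 0.750 for iSuRe-HadCre liver. With a haemoglobin limit of 1%, Cdkn1c against control was at 0.508 for iSuRe-Cre liver, and Cdkn2d was at 204 CPM in neutrophil-lineage-like cells. Among cells of 4000 to 20000 UMIs, Cdkn1a against control was at 2.03 for iSuRe-Cre liver and 1.50 for iSuRe-HadCre liver, and Cdkn1c against control was at 0.559 for iSuRe-Cre heart, 1.17 for iSuRe-HadCre heart and 0.922 for iSuRe-Cre liver. Cdkn1a by Mki67 was at 2.10 for control heart and 0.465 for control liver, and Cdkn1c by Mki67 was at 0.803 for control heart, 0.357 for iSuRe-Cre heart, 0.285 for iSuRe-HadCre heart, 0.379 for control liver and 2.25 for iSuRe-Cre liver. Cdkn2c by Mki67 was at 20.7 for iSuRe-Cre heart, and Cdkn2d by Mki67 was at 7.64 for iSuRe-Cre heart and 5.31 for iSuRe-HadCre heart. Cdkn1c was at 4299 CPM in chondrocyte-like cells, and Cdkn2d was at 193 CPM in neutrophil-lineage-like cells. With each cell weighted equally, Cdkn1a against control was at 1.64 for iSuRe-Cre liver, and Cdkn1c against control was at 0.523 for iSuRe-Cre heart, 0.872 for iSuRe-HadCre heart, 0.901 for iSuRe-Cre liver and 0.677 for iSuRe-HadCre liver. After subtraction of free RNA at a share of 10%, Cdkn1c against control was at 0.549 for iSuRe-Cre heart. Among cells without an Mki67 UMI, Cdkn1a against control was at 4.01 for iSuRe-Cre heart, 1.83 for iSuRe-HadCre heart, 2.63 for iSuRe-Cre liver and 1.66 for iSuRe-HadCre liver, and Cdkn1a in iSuRe-HadCre against iSuRe-Cre was at 0.631 for liver. Cdkn1b against control was at 0.674 for iSuRe-Cre heart, and Cdkn1c against control was at 0.777 for iSuRe-Cre heart, 0.393 for iSuRe-Cre liver and 0.411 for iSuRe-HadCre liver. Cdkn2c against control was at 0.631 for iSuRe-Cre heart and 0.464 for iSuRe-HadCre heart, and Cdkn2d against control was at 0.934 for iSuRe-Cre heart. With 2 Mki67 UMIs required, Cdkn1a by Mki67 was at 0.961 for control heart, 0.702 for iSuRe-Cre heart, 0.554 for iSuRe-HadCre heart and 0.497 for iSuRe-Cre liver, and Cdkn1c by Mki67 was at 1.06 for iSuRe-HadCre heart and 1.15 for iSuRe-Cre liver. With Top2a in place of Mki67, Cdkn1a by Mki67 was at 0.558 for control heart, 0.846 for iSuRe-Cre heart, 0.559 for iSuRe-HadCre heart and 0.659 for iSuRe-Cre liver, and Cdkn1b by Mki67 was at 0.986 for control heart. Cdkn1c by Mki67 was at 1.16 for iSuRe-HadCre heart, 0.539 for control liver and 2.26 for iSuRe-Cre liver. With doubled gate minimums, Cdkn1a was at 346 CPM in capillary EC-like cells, and Cdkn1c was at 3943 CPM in chondrocyte-like cells. Without the cell with the most UMIs in each group, Cdkn1a against control was at 2.32 for iSuRe-Cre liver and 1.81 for iSuRe-HadCre liver, and Cdkn1c against control was at 1.31 for iSuRe-HadCre heart, 0.921 for iSuRe-Cre liver and 0.724 for iSuRe-HadCre liver. Without the cell with the most UMIs on each side, Cdkn1a by Mki67 was at 0.666 for iSuRe-HadCre heart and 1.10 for control liver, and Cdkn1c by Mki67 was at 0.844 for iSuRe-HadCre heart. Without cells holding 5 or more Col1a2 and Col3a1 UMIs, Cdkn1a in iSuRe-HadCre against iSuRe-Cre was at 0.530 for heart, and Cdkn1a against control was at 1.90 for iSuRe-Cre liver and 1.51 for iSuRe-HadCre liver. Cdkn1c against control was at 0.486 for iSuRe-Cre heart, 1.26 for iSuRe-HadCre heart, 0.765 for iSuRe-Cre liver and 0.956 for iSuRe-HadCre liver. Among cells with an Mki67 UMI, the other side of that split, Cdkn1a against control was at 2.01 for iSuRe-Cre heart, 1.03 for iSuRe-HadCre heart, 0.468 for iSuRe-Cre liver and 0.817 for iSuRe-HadCre liver, and Cdkn1a in iSuRe-HadCre against iSuRe-Cre was at 1.75 for liver. Cdkn1c against control was there at 0.458, 1.45, 2.22 and 1.47 in the same order, so that for liver the directions with and without an Mki67 UMI were opposite. With the top cell of each liver group left out on that side, Cdkn1a was at 92.5, 144.1 and 210.1 CPM for control, iSuRe-Cre and iSuRe-HadCre, with control lowest. By the definition above, the reversed ratios among the counted alternatives are those of Cdkn1a by Mki67 in both controls and Cdkn1b by Top2a in control heart. The others are Cdkn1c of iSuRe-HadCre against control, and Cdkn2c and Cdkn2d in heart cells without Mki67. On the side with an Mki67 UMI, which was not counted, Cdkn1a of iSuRe-Cre liver and Cdkn1c of both iSuRe livers also met this definition. The numbers of genes past 2-fold depend on the limits by construction. With a minimum of 20 UMIs they were 1198, 860 and 1391 for iSuRe-Cre against control, iSuRe-HadCre against control and iSuRe-HadCre against iSuRe-Cre in heart, 2486, 679 and 2152 for liver, and 1251, 1342, 1341, 1084, 1400 and 1087 by Mki67 for control, iSuRe-Cre and iSuRe-HadCre heart and then liver. With a limit of 1.5-fold they were, in the same orders, 1982, 1322 and 2823, 3410, 731 and 3030 and 1596, 1880, 2196, 897, 2284 and 922.

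No paired analysis was possible because each group was 1 hashtagged sample. With no replicates, intervals hold counting error only, and control liver (54 cells) and iSuRe-HadCre liver (76 cells) limit the liver ratios they enter. The removal of single cells and of cells with collagen UMIs was chosen after seeing the data.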

Other observations

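Cdh5-positive cells without a hashtag, 5585 barcodes that the labels place in no group, held Cdkn1a at 193 CPM (188 to 197) and Cdkn1c at 699 CPM (690.2 to 708). Cdkn1b was at 82.6 CPM, Cdkn2c at 21.7 CPM and Cdkn2d at 53.8 CPM. Cdkn2b was at 5.01 CPM (4.27 to 5.83), on 164 UMIs, and Cdkn2a at 0.855 CPM. Their organ and genotype are not known.

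As the scale on which Cdkn1a is read in iSuRe-Cre against control heart, the highest ratios among genes with at least 200 UMIs were those of Ccl21a, a lymphatic chemokine, at 167 times (46.2 to 1385, 918 against 2 UMIs), and of the interferon-inducible genes Ifi206, at 93.4 times (16.6 to 3704, 256 against 1 UMIs), and Ifi213, at 32.0 times (10.8 to 156, 263 against 3 UMIs). Thsd7b was at 22.4 times (9.50 to 69.5) and Cxcl9, an interferon-induced chemokine, at 20.8 times (16.1 to 27.3, 3358 against 59 UMIs). The lowest were Gm26992 at 0.0878 times (0.0620 to 0.122, 45 against 187 UMIs), Notch1 at 0.0919 times (0.0735 to 0.114, 105 against 417 UMIs), WPRE at 0.113 times (0.102 to 0.125, 527 against 1704 UMIs), S100a8 at 0.177 times (0.139 to 0.223, 108 against 223 UMIs) and Pltp, a phospholipid transfer protein, at 0.191 times (0.159 to 0.228, 187 against 358 UMIs).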
